A study of Drosophila melanogaster with 2 samples.

Results

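Eip75B is an ecdysone-induced gene of Drosophila melanogaster that lies on the minus strand of arm 3L, at chr3L:17950953-18064696 on the dm6 build, and is 113744 bp long. Its occupancy by a tagged Broad protein was taken as every peak summit inside the gene or within 5 kb of it, a window of 124 kb. The authors' optimal set of reproducible peaks held 34 such summits out of 6635, and the list called on pooled reads held 122 out of 30000. The peak lists of replicates 1 and 2 held 110 and 122, each out of 30000. The chromatin came from whole larvae taken in the wandering stage of the last instar, both sexes together, of a transgenic line that carries the br-RJ product with GFP at its C-terminal end, and it was precipitated with an antibody against GFP. There is 1 group with 2 biological replicates, both from this line, and no second genotype, treatment or time, so the values are descriptions and no test between conditions exists. Whole larvae mix all tissues, so that binding in few cells and weak binding in many cannot be told apart.

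Ecdysone, the steroid hormone of insect moulting, acts through a receptor made of the products of EcR and usp and switches on a small set of early genes, among them br, Eip74EF and Eip75B. The br gene encodes the Broad proteins, which join a BTB domain to zinc fingers that bind DNA, and it is needed for the change from larva to pupa. Eip75B encodes E75, a nuclear receptor that binds heme, responds to nitric oxide and can block the activity of Hr3, another receptor of the cascade. The gene makes several isoforms from separate start sites, which differ at the amino end of the protein.

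The annotation lists 7 isoforms with 7 start sites. Eip75B-RF, Eip75B-RE and Eip75B-RB start farthest upstream, at 18064696, 18061453 and 18059598, and share 1 coding sequence of 1412 codons. Eip75B-RG starts at 18026032, Eip75B-RC at 17999821, Eip75B-RA at 17971439 and Eip75B-RD at 17961814, and each of these has a coding sequence of its own, of 991, 1199, 1355 and 906 codons. The 7 isoforms therefore encode 5 proteins. Exons at 17955215 to 17956223 and at 17959382 to 17959620 are common to all 7. An exon of 145 bp at 17969363 to 17969507 is present in the other 6 and absent from Eip75B-RD, and an exon of 89 bp at 17992908 to 17992996 is absent from both Eip75B-RA and Eip75B-RD.

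The sequences under the summits that carry the result are shown here, 50 bp to either side of each summit, on the plus strand of the dm6 reference genome, 5′ to 3′. The first 4 belong to the strongest summits of the locus, and the others to summits within 500 bp of the remaining start sites that had one. Capitals mark matches to any of 14 short sequences searched on both strands.

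Summit at chr3L:18011908, signal 1656, intron: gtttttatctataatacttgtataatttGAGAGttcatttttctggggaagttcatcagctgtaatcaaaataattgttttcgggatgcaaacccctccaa
Summit at chr3L:17999802, signal 727, Eip75B-RC start: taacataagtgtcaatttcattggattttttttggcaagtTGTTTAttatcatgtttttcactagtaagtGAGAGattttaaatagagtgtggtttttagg
Summit at chr3L:18009171, signal 409, intron: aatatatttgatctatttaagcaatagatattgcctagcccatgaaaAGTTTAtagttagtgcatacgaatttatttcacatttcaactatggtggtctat
Summit at chr3L:18019838, signal 282, intron: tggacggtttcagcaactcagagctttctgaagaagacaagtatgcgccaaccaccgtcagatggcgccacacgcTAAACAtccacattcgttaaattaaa
Summit at chr3L:18065150, signal 123, before the Eip75B-RF start: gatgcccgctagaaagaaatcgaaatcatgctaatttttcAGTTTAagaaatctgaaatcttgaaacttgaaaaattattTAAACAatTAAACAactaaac
Summit at chr3L:18026012, signal 83.6, Eip75B-RG start: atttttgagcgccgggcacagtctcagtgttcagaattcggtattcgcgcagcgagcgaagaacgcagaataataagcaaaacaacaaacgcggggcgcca
Summit at chr3L:17971198, signal 117, Eip75B-RA first exon: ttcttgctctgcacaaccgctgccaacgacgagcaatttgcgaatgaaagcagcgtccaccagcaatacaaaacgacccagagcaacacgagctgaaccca
Summit at chr3L:17961724, signal 119, Eip75B-RD start: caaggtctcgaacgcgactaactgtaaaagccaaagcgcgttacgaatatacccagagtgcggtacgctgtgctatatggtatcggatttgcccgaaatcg

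The strongest signals of the locus lay at a few summits in its middle. Signal is the value that the authors' peak caller gave each peak. Its scale is not stated, so sums, shares and ratios of signal describe the listed values and are not amounts of bound protein, and the lists of the 2 replicates may not be on 1 scale. The 4 strongest summits of the optimal set held 47.3% of the signal summed over the 34, and they lay within 20.04 kb of each other. The other 30, with signals of 81.1 to 192, held the rest. The median over the locus was 117, against 137 in the whole optimal set.

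The strongest summit, at chr3L:18011908, had a signal of 1656 in the optimal set and ranked 24 of 6635. Its peak runs from 18011647 to 18012147. Replicates 1 and 2 gave it 784 and 879, which ranked 28 and 21 in their own lists. It lay in an intron of Eip75B-RF, Eip75B-RE, Eip75B-RB and Eip75B-RG, 12087 bp upstream of the Eip75B-RC start. Around the summit GC content was 32.7%, and a GAGAG match was the only one of the 14 sequences found.

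The next summit, at chr3L:17999802, had a signal of 727 and rank 171, and the listed value of the first was 2.28 times as high. It lay 19 bp inside the first exon of Eip75B-RC. Replicates 1 and 2 gave it 368 and 358. Its window held 1 TAAACA, written as TGTTTA on the plus strand, and 1 GAGAG.

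The third, at chr3L:18009171, had a signal of 409 and rank 616, with 188 and 210 in replicates 1 and 2, and it was intronic, 9350 bp upstream of the Eip75B-RC start. The fourth, at chr3L:18019838, had 282 and rank 1139, with 146 and 135 in replicates 1 and 2, and lay in the first intron of Eip75B-RG, 6194 bp downstream of its start. These 4 summits took places 1 to 4 of the locus in both replicate lists, in the same order. Their peaks were also the 4 whose width differed from the 430 bp given to the other 30, at 501, 419, 295 and 161 bp from the strongest down. In the whole optimal set 65.5% of the peaks had the width of 430 bp, so another width is common there.

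The next 6 summits by signal were weaker and lay in introns or past the gene. The summit at 17992319 had 192, with 108 and 86.1 in replicates 1 and 2, and lay 7502 bp downstream of the Eip75B-RC start. Those at 18038330 and 18037656 had 179 and 157 and lay 12298 and 11624 bp upstream of the Eip75B-RG start, on either side of the non-coding RNA gene lncRNA:CR45922. The summit at 17973320 had 150, with 71.6 and 73.9 in replicates 1 and 2, and lay 1881 bp upstream of the Eip75B-RA start. The summit at 17988378 had 137, with 63.4 and 75.4 in replicates 1 and 2, and that at 17950570, past the end of the gene, had 137 as well.

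**Figure D1:**
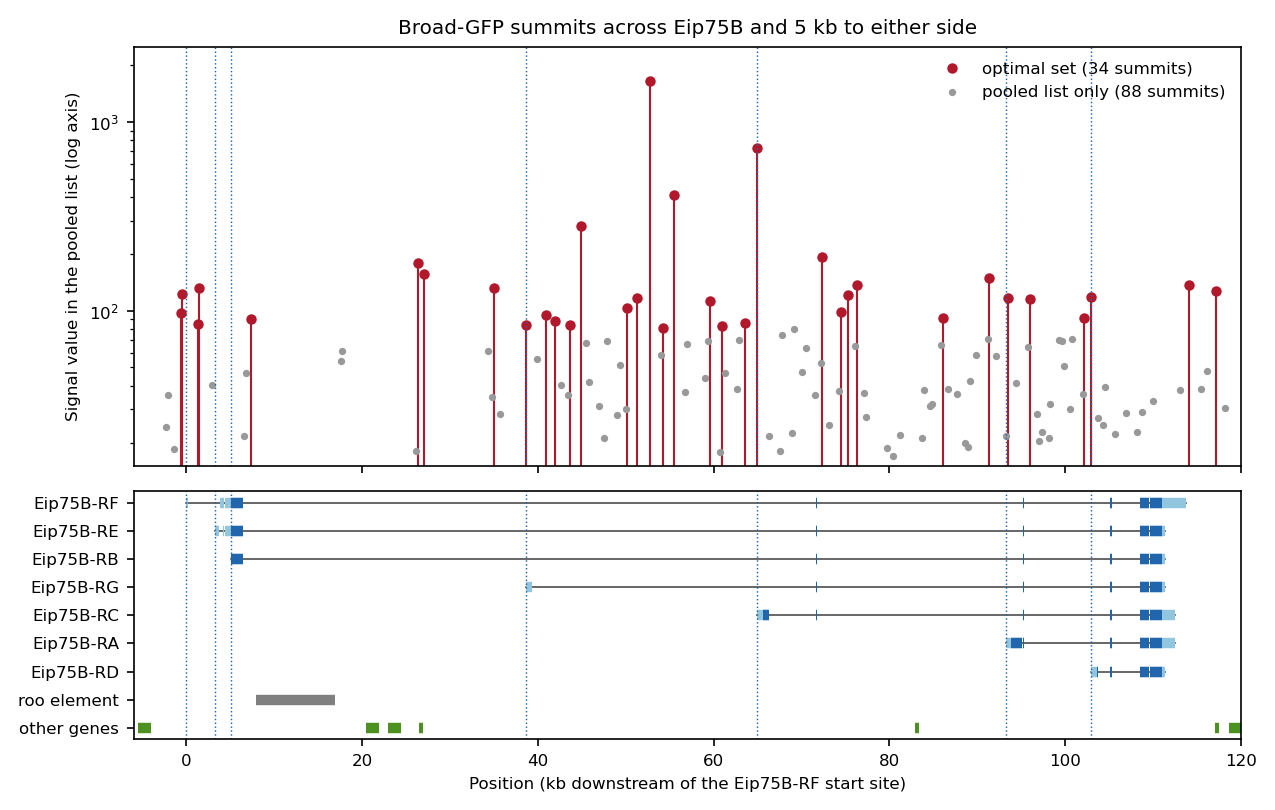
Upper panel, signal value in the pooled list (log axis) of each summit against its position in kb downstream of the Eip75B-RF start site; red points with stems are the 34 summits of the optimal set, grey points the 88 weaker summits of the pooled list, and dotted lines the 7 start sites. Lower panel, exons (light blue) and coding exons (dark blue) of the 7 isoforms, the roo element and the other annotated genes. The 4 strongest summits, from 282 to 1656, stand between the Eip75B-RG and Eip75B-RC starts or at the Eip75B-RC start.

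Summits were spread unevenly over the gene. The 26.2 kb between the starts of Eip75B-RC and Eip75B-RG held 13 of the 34 summits, or 4.96 per 10 kb, and 50.5% of the summed signal. The 28.4 kb between the starts of Eip75B-RA and Eip75B-RC held 7 summits and 23.3% of the signal. That stretch includes the start summit of Eip75B-RC, since the summit lies downstream of the start. The 33.6 kb between Eip75B-RG and Eip75B-RB held 4 summits, or 1.19 per 10 kb, and 8.60% of the signal, with 179 as the highest. The 10.9 kb from the end of the gene to the Eip75B-RD start, which contain the exons shared by all isoforms, held 1 summit, and it lay at that start.

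Seen by isoform, the span of Eip75B-RF contained 30 of the 34 summits, that of Eip75B-RG 24 and that of Eip75B-RC 11. The spans of Eip75B-RA and Eip75B-RD contained 4 and 1. The other 4 summits lay in the flanks. A pair at 17947516 (signal 127) and 17950570 (137) followed the end of the gene, and a pair at 18065150 (123) and 18065362 (97.0) preceded the Eip75B-RF start. Outside the window, the nearest optimal summits were 32678 bp beyond the end of the gene (signal 101) and 35206 bp before its first start (143).

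Of the 7 start sites, 5 had an optimal summit within 500 bp. These were Eip75B-RC (19 bp inside the transcript, 727), Eip75B-RG (20 bp inside, 83.6), Eip75B-RD (90 bp inside, 119), Eip75B-RA (241 bp inside, 117) and Eip75B-RF (454 bp upstream, 123). The start of Eip75B-RC was the only one of these with a signal above the median of the whole set.

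The Eip75B-RG summit was among the weakest of the optimal set, at rank 6313, with 37.6 and 36.6 in replicates 1 and 2. At the Eip75B-RD start replicates 1 and 2 gave 61.7 and 59.7. The Eip75B-RA summit had 74.7 in replicate 1 and 45.6 in replicate 2. Upstream of the Eip75B-RF start the nearest summit was at 446 bp in replicate 1 and at 556 bp in replicate 2, outside the 500 bp. Within 250 bp of a start there were 4 optimal summits, and Eip75B-RF had 0.

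The remaining starts, those of Eip75B-RE and Eip75B-RB, had no optimal summit within 1000 bp. The nearest were 1755 bp upstream of Eip75B-RE (132) and 2287 bp downstream of Eip75B-RB (90.2). The pooled list had a weak summit 348 bp upstream of Eip75B-RE, with a signal of 40.4 at rank 13519. Replicate 1 listed 28.7 there at 309 bp, and replicate 2 listed 13.0 at 400 bp. At Eip75B-RB only replicate 1 had a summit within 500 bp, with 11.7 at 486 bp. Both starts feed the same coding sequence as Eip75B-RF, whose own start had 2 optimal summits within 1000 bp.

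**Figure D2:**
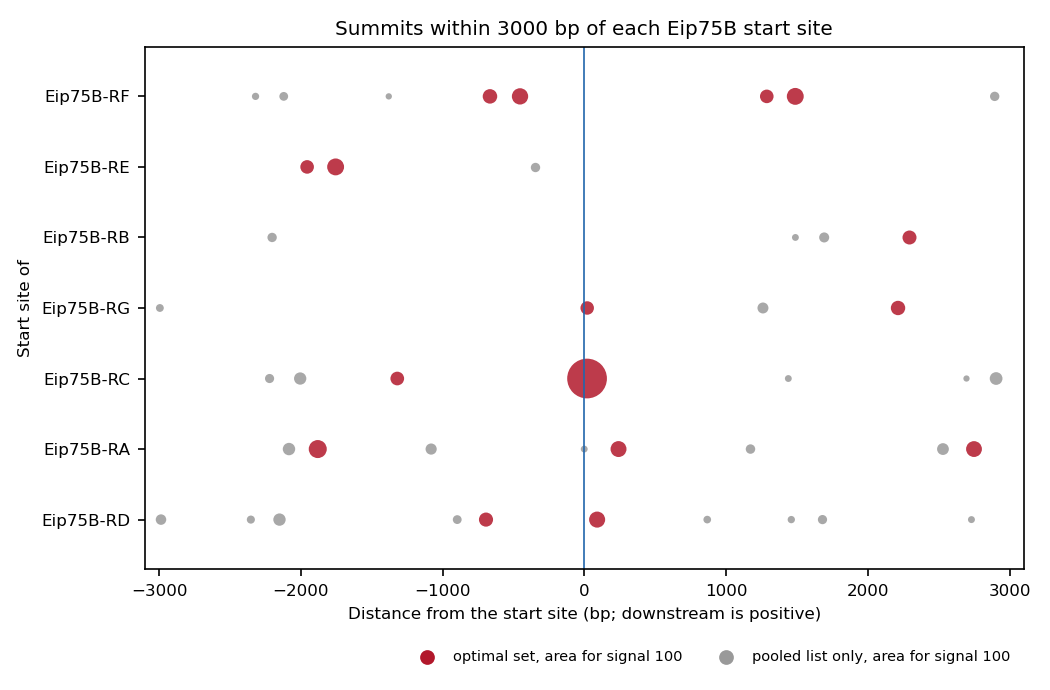
Summits within 3000 bp of each of the 7 Eip75B start sites, by distance in bp with downstream positive; point area is proportional to the signal value in the pooled list, red for the optimal set and grey for weaker summits of the pooled list. The largest point, 727, sits 19 bp downstream of the Eip75B-RC start, and the rows of Eip75B-RE and Eip75B-RB have no red point within 1000 bp.

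Most of the summits were far from any start of the gene. By class, 26 of the 34 (76.5%) were intronic, 5 were within 500 bp of a start and 3 were outside the gene. Beyond 500 bp of a start, 0 summits lay in coding exons or in untranslated regions. The share within 500 bp of a start of Eip75B was 14.7%, against 40.7% of the whole optimal set within 500 bp of a protein-coding start. The median distance to the nearest start of Eip75B was 4470 bp, against 980 bp to the nearest protein-coding start in the whole set. Starts of other genes were left out at Eip75B but counted in the whole set, so these medians are not measured alike. The summit at 18038330, for example, lay 1987 bp from the start of the protein-coding gene CG32192. Eip75B is 114 kb long, against a median of 2.16 kb for protein-coding genes, and the part of gene length in these differences was not tested.

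Neighbouring summits at Eip75B were a median of 2082 bp apart, against 5519 bp in the whole set. The closest pair, at 18063208 (132) and 18063409 (85.1) in the first intron of Eip75B-RF, was 201 bp apart. With summits less than 1000 bp apart joined, the 34 formed 28 groups. Of these, 5 had more than 1 summit, and the group with most had 3 (17988378, 17989377 and 17990237, with signals of 137, 121 and 98.5). Joined in the same way, the whole set formed 5606 groups, of which 864 had more than 1 summit.

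The widest stretch without an optimal summit measured 18981 bp, from 18038330 to 18057311. It contains a roo retrotransposon of 8999 bp at 18047763 to 18056761, in which all 4 lists had 0 summits. Whether reads from this repeated element could be placed was not tested. Outside the element the stretch held 3 pooled summits, the highest with 60.8. The next widest stretch, 11154 bp from 17950570 to 17961724, covers the shared exons and held 9 pooled summits of at most 39.2.

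Among the other genes annotated in the window, 2 non-coding RNA genes met optimal summits. lncRNA:CR45922, at 18037723 to 18038280 in the long intron downstream of the Eip75B-RB start, had 1 summit 50 bp before its start (18038330, signal 179) and 1 just past its end (18037656, signal 157). Replicates 1 and 2 gave 96.4 and 83.8 at the first of these, and 99.7 and 57.8 at the second. lncRNA:CR45393, in the downstream flank, held the summit at 17947516, 184 bp inside its start. The genes CG32192, CG42393 and lncRNA:CR45921, which lie inside introns, had 0 summits in the optimal and pooled lists, as did CG44006 in the upstream flank. lncRNA:CR43174, which reaches into the window from downstream, had 0 optimal and 6 pooled summits over its whole length.

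The replicates were compared at each of the 34 summits. A summit was matched where a replicate's list had one within 100 bp, and 32 of the 34 (94.1%, Wilson 95% interval 80.9 to 98.4) were matched in both, against 93.2% of the whole optimal set. The optimal set is the 6635 strongest peaks called on the pooled reads of these same replicates. This share is therefore high in part by construction, and the interval covers counting error only. The exceptions were the summit at 17978545 (91.6), which had 76.3 in replicate 2 and only 26.8 at 149 bp in replicate 1, and that before the Eip75B-RF start, which had 57.6 in replicate 1 and 70.9 at 102 bp in replicate 2. When just the 6635 strongest peaks of each replicate counted, 21 of the 34 (61.8%) were matched in both, against 71.9% of the whole set.

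At the matched summits the replicates ranked alike, with a Spearman rho of 0.782 (n = 32 summits of the same libraries) against 0.786 over 6181 summits of the whole set. The signal was higher in replicate 1 at 25 of the 32, against 3188 of the 6181 in the whole set. Over the 32 the median log2 ratio of replicate 1 to replicate 2 was 0.17. The SD of this log2 ratio, which is its spread between summits and not the error of the median, was 0.35 over the 32. Over the whole set the median was 0.016 and the SD 0.52. The 4 strongest summits had log2 ratios of replicate 1 to replicate 2 between -0.17 and 0.11. The summit at 17950570, in the downstream flank, had the largest, with 95.9 in replicate 1 and 42.5 in replicate 2, a ratio of 2.25. The other 31 were within 2-fold (96.9% of the 32), against 94.2% of the whole set.

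**Figure D3:**
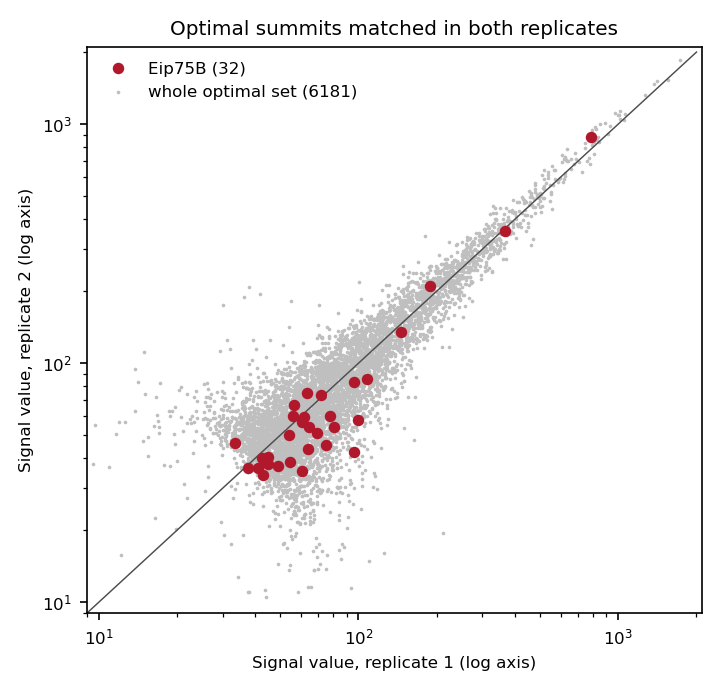
Signal value in replicate 1 (horizontal axis) and in replicate 2 (vertical axis), both log axes, for optimal summits with a match within 100 bp in both lists; red points are the 32 matched summits of Eip75B, grey points the 6181 of the whole set, and the line marks equal values. The strongest Eip75B summit (784 and 879 in replicates 1 and 2) lies close to the line, and most of the weaker ones lie below it, where the value of replicate 1 is the higher.

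Below the optimal set the pooled list added 88 weaker summits at Eip75B, with signals of 16.9 to 79.8. Of these, 44 (50%) had a summit of both replicates within 100 bp, against 40.9% of all weaker pooled summits. Their median signal was 36.4, against 28.9 for all weaker ones, and the part of signal in the share matched was not tested. The strongest of them, at 17995543, had 79.8 and rank 6647, just short of the set. Of the 110 summits of replicate 1, 76 (69.1%) had one of replicate 2 within 100 bp, against 52.7% of the whole list. Of the 122 summits of replicate 2, 76 (62.3%) had one of replicate 1, also against 52.7%. The locus summits of replicates 1 and 2 had median signals of 28.7 and 26.1, against 20.5 and 19.2 in the whole lists. They also lay densely, at 8.89 and 9.86 per 10 kb, which makes a neighbour within 100 bp easier to meet. The part of signal and of density in the shares matched here was not tested.

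Eip75B had more optimal summits than any other of the 13968 protein-coding genes when the gene and 5 kb to either side were counted. Length plays into such a count, and 313 genes of 50 kb or longer were therefore ranked by summits per 10 kb. Eip75B had 2.75 per 10 kb and took place 3, against a median of 0.246 per 10 kb in these long genes, of which 212 had any summit. With the gene body alone, without the 4 summits in the flanks, it took place 5. By strongest signal it took place 5 among them. Counted with peaks above the median signal of the set alone, Eip75B had 8 summits and took place 25 of the 313 by summits per 10 kb. This goes with the low signals of most of its summits: 8 of the 34 (23.5%) were above the median of the set, and 13 (38.2%) were below 100, against 22.8% of the whole set. The share above the median was higher in the strongest peaks of a single replicate, at 35.5% without replicate 1 and 37.9% without replicate 2, each against the median of its own list.

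Of the 249 other protein-coding genes with 0.5 to 2 times the length of Eip75B, those nearest to it in summits per 10 kb were sbb, ush, shn, Eip74EF and psq. sbb, which encodes a nuclear corepressor, had 26 summits (2.92 per 10 kb, strongest signal 672) and shn, which encodes a zinc finger cofactor of Dpp signalling, had 21 (3.07 per 10 kb, strongest 743). ush, which encodes a cofactor of GATA factors, had 18 (2.42 per 10 kb), with the highest signal of the whole set, 3635. Eip74EF, the early ecdysone gene that encodes an ETS factor, had 14 (1.98 per 10 kb, strongest 247), and psq, which encodes another BTB protein, had 13 (1.87 per 10 kb, strongest 229). The median of the 249 genes was 0.254 per 10 kb.

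**Figure D4:**
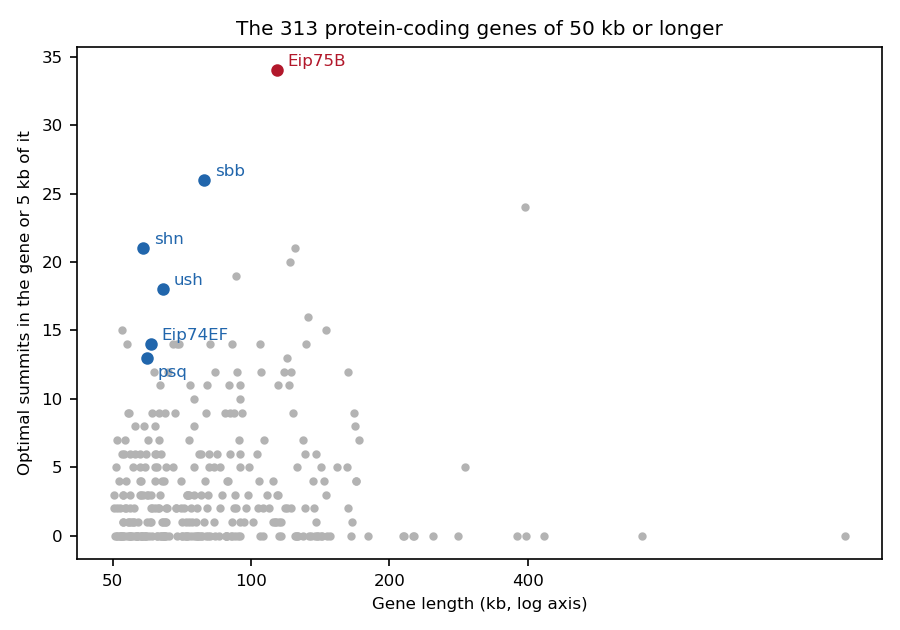
Number of optimal summits in the gene or 5 kb of it against gene length in kb (log axis) for the 313 protein-coding genes of 50 kb or longer, each point a gene. Eip75B (red) has 34 summits, the most of all, and the blue points are the 5 genes of similar length nearest to it in summits per 10 kb.

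Other genes of the ecdysone cascade were looked at in the same window. The list names 25 symbols, which stand for 24 genes, since Eip71CD and Eip28/29 are both older names of MsrA. Of the 23 genes other than Eip75B, 22 (95.7%) had an optimal summit in the gene or 5 kb of it, against 49.9% of all protein-coding genes, and their median was 5 summits, against 0 for all genes. The 23 genes had a median length of 25.6 kb, against 2.16 kb for all protein-coding genes, and the part of length in these counts was not tested. EcR, a subunit of the ecdysone receptor, had 14 summits and a strongest signal of 343, and Eip74EF also had 14. The nuclear receptor gene Hr4 had 12 summits and a strongest of 990, and tai, which encodes a coactivator of the receptor, had 12 with a strongest of 412. Cth, listed under its older name Eip55E, was the only one with 0 summits. By summits per 10 kb Eip75B took place 3 of the 24, after usp (3.70) and vri (3.10), both much shorter genes.

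Short sequences under the Eip75B summits were counted in windows of 101 bp and set beside the 6635 windows of the whole set. A match describes letters in a window and is not a binding site. Wilson 95% intervals are given for the Eip75B shares and cover counting error only. TAAACA, a core found in published Broad sites and also in sites of forkhead factors, was present in 3 of 34 windows (8.82%, interval 3.05 to 22.96), against 13.9% in the whole set. TAAACT, the core of a further Broad site, was present in 2 (5.88%, interval 1.63 to 19.1), against 8.98%. Both intervals contain the share of the whole set. The TAAACA matches were at the summits with signals of 727 and 282 and, in 2 copies, before the Eip75B-RF start. The TAAACT matches were at the summit with 409 and at that same Eip75B-RF summit. GTAAACA, a longer forkhead form that contains TAAACA, was present in 0 windows, against 3.15%.

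GAGAG, the sequence read by the GAGA factor, was present in 9 of the 34 windows (26.5%, interval 14.6 to 43.1). In the whole set the share was 13.1%, below this interval. The windows with it included the 2 strongest summits. AGGTCA, the core that many nuclear receptors bind, was present in 2 windows, against 1.87%, as were the E-box CACGTG, against 0.829%, and CACACACA, against 2.29%. A count of 2 windows has the interval given for TAAACT, which contains the shares of the whole set for AGGTCA and CACACACA and lies above that for the E-box. The intervals are not widened for the 14 sequences searched, and the E-box share rests on 2 windows. The core bound by Pannier and Serpent, GATAAG, was present in 1 window (2.94%, interval 0.521 to 14.9), against 7.08%. TGANTCA (AP-1), TATCGATA (the DRE), GGTCACAC (motif 1 of promoters), CAGGTAG (Zelda), AACCGGTT (Grainy head) and CATTCC (Scalloped) were present in 0 of the 34, against 2.46%, 1.31%, 0.844%, 0.392%, 0.181% and 3.66% in the whole set. A count of 0 of 34 has an interval up to 10.2%, which contains each of these shares and that of GTAAACA. In windows reaching 100 bp to either side, CATTCC was present in 3 of the 34 (8.82%), against 7.11% of the whole set, so that its direction turned, and TGANTCA was present in 1 (2.94%), against 4.87%. For GAGAG, CACACACA and the E-box the intervals in these wider windows lay above the shares of the whole set. GAGAG was present in 15 of these windows (44.1%, interval 28.9 to 60.5), against 27.4%. CACACACA was present in 6 of these windows (17.6%, interval 8.35 to 33.5), against 5.49%, and TAAACA in 7 (20.6%), against 23.5%. TAAACT was present in 2 of them (5.88%, interval 1.63 to 19.1), against 16.0%. The E-box was present in 3 (8.82%, interval 3.05 to 22.96), against 2.06%. GATAAG was present in 3 (8.82%), against 13.3%, and AGGTCA in 2 (5.88%), against 3.51%. Of the 34 windows of 101 bp, 18 held none of the 14 sequences, among them those at the starts of Eip75B-RG, Eip75B-RA and Eip75B-RD. No such count is given for the whole set, so the 18 cannot be read as a trait of the locus. GC content averaged 41.8% at Eip75B, against 37.7% in the whole set, and its part in these shares was not tested.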

How the data were processed

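Broad-GFP chromatin immunoprecipitation followed by sequencing (ChIP-seq) was done on 2 biological replicates of whole larvae, with chromatin sonicated to 200 to 800 bp, per the labels. Peaks were called for each replicate and for the pooled reads against a control alignment, and the optimal set came from the irreproducible discovery rate (IDR) step, per the README deposited with each replicate. Aligner, caller and IDR threshold were not given in the sources used here. Each peak's signal and −log10 q are values of the authors' caller as deposited. The −log10 q has a ceiling, 4.02, at which 22 of the 34 Eip75B peaks (64.7%) stood, against 78.9% of the whole optimal set. It was therefore not used to rank peaks. Checked on the files, the optimal set is the 6635 strongest pooled peaks. The lists give no read counts, so depth is unknown.

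A summit is column 2 plus column 10, written 1-based. Gene models came from Ensembl release 115 (BDGP6.54), and bases were read from the RefSeq copy of the dm6 assembly. The lists on dm3 were not used. Python 3.11.15 with pandas 2.3.3 and scipy 1.17.1 did the counting, which was tested on simulated data. Named were the 10 strongest summits and those nearest each start, the 5 genes nearest in density, the 4 listed genes with most summits and any with 0, and genes in the window. Features named by another choice (the matching exceptions, usp and vri) were picked after their values were seen. The gene, the lists and the sequences were chosen with earlier results of these data known. Alternatives varied the flank, the matching distance, the start window, the joining distance, the sequence window and the list used.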

Additional observations from a re-analysis of the deposited data

How the results depend on the processing

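Of 26 alternatives over 9 results, 18 moved the value by less than its limit (1.5 times for a count or a rank, the Wilson 95% interval for a share, 1 SD for the ratio of replicates). The 34 summits became 8 with peaks above the median signal of the set. Without replicate 1 the count was 31 and without replicate 2 it was 29, each from the 6635 strongest peaks of the other replicate. The share of summits matched in both replicates was 70.6% within 50 bp, 100% within 200 bp and 100% by overlap of the peak intervals. No whole-set share is given for these settings, so they cannot be read as a trait of the locus. Among the strongest peaks of each replicate the share was 61.8%, against 71.9% of the whole set. Joining summits less than 2000 bp apart gave 18 groups in place of 28. The place by summits per 10 kb among long genes was 5 with the gene body alone and 25 with peaks above the median, in place of 3. The share of summits above the median of the list, added after the data had been seen, was 35.5% without replicate 1 and 37.9% without replicate 2, against 23.5%. No paired analysis was possible because there is 1 group. Depth is unknown, so a start with no summit may have one below what these lists could show.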
